A study of Zea mays with 10 samples.

Results

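The set described here holds the 202 genes that took the largest shares of captured, newly made RNA in maize root tips without being strongly shifted between that RNA and the total nuclear pool. Members were chosen from the deposited counts themselves. A gene entered when its mean over the 5 EU nascent libraries was at least 300 CPM (the count of a gene scaled to the library total) and the log2 ratio of its EU nascent to its nuclear mean, with 0.5 CPM added to each, lay above -1 and below 1. Of the 48174 genes listed, 223 reached that level. Of these, 16 had a ratio at or under the lower limit and 2 a ratio at or over the upper one, 3 more were left out by name, and the remaining 202 (0.419% of the genes listed) are the members. The level and the ratio chose the members, so both are given as a description only.

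All 10 libraries came from the inbred line B73, as seedlings 3 days after germination, grown at 28 C. Every seedling was kept in water for 1 h and then in 175 uM 5-ethynyl uridine (EU) for 1 h, and RNA was taken from nuclei of the last 1 mm of primary and seminal roots, the region of the meristem. In 5 libraries, called EU nascent, the RNA carrying EU had been biotinylated and pulled down on streptavidin. The other 5, called nuclear, held nuclear RNA from equally labelled tissue with no pulldown. A pulldown from tissue without EU was not analysed here, so how much of each EU nascent value is RNA captured without the label was not measured. The titles call the replicates biological and do not say what same-numbered libraries share. In bulk RNA such as this, fewer cells of a type and less RNA per cell cannot be told apart.

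A gene's nuclear RNA is what remains from synthesis, splicing, export and decay. EU is a uridine analog that polymerases build into RNA during the labelling period, and the capture keeps mainly transcripts made in that time, whereas total nuclear RNA also holds older transcripts that stay in the nucleus. In root tips, where cells divide and elongate, sugar delivered from the seed feeds glycolysis and wall synthesis. Maize roots short of oxygen are known to make a small group of enzymes of sucrose breakdown, glycolysis and ethanol fermentation, long called the anaerobic proteins.

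Library totals ran from 2391209 to 5770915 counts in EU nascent and from 1323450 to 20397606 in nuclear. At these depths the lowest count of any member in any library was 169, for which counting error alone gives a coefficient of variation of 7.69%. Levels below are CPM after trimmed-mean (TMM) scaling, called scaled CPM, and differences are log2 of EU nascent over nuclear from edgeR with its standard error (n = 5 per group). Unless a block by replicate number is named, that fit and the overlap of groups take no account of replicate number. Levels with an error are means ± SD over 5 libraries, and where a pair of levels is given the EU nascent one comes first. Because CPM is not divided by gene length, a level is a share of reads and does not rank genes by transcripts. With library totals in place of TMM the median difference over all 21048 tested genes moved from 0.02 to 0.19, a shift of 0.17 that moves the differences below by about the same amount. Overlap of groups was judged on scaled CPM alone, and the same shift can change it. Of the 15 symbols of the root tip marker list 9 were matched. Its cell cycle genes were present (cyc1 at 50.3 ± 5.85 scaled CPM and pcna1 at 46.3 ± 5.2 in EU nascent, SD, n = 5). The other matched genes were plt1, plt2 and rtcs, all 3 at 0 in every library, and wox5b, at 1.33 ± 1.31 and 0.82 ± 0.28. Matching was by symbol, and a symbol can belong to another gene, so these 0 values are not read as absence of a root tip regulator. Summed over the list the level was 163 to 221 in EU nascent and 157 to 201 in nuclear. Of the endosperm and embryo markers, 6 of 10 were at 0 throughout and the sum stayed at or under 1.21. The leaf markers other than the member ppdk1 summed to 31.1 to 44.9 in EU nascent and 21.8 to 34.0 in nuclear, almost all from me3, with 3 of the 7 matched leaf genes at 0. Of 4 markers of differentiated root, 2 matched, with zrp4 at 0 and rth3 supplying sums of 38.5 to 48.6 and 34.0 to 41.2.

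Together the members took 9.60% ± 0.136 of the counts in EU nascent (SD, n = 5, range 9.41 to 9.72) and 9.41% ± 0.176 in nuclear (range 9.16 to 9.62). With TMM scaling the shares were 9.05% and 9.99%, so which group was higher depended on the scaling. Within the set, the 10 highest genes held 13.2% of the summed EU nascent level, and the 52 genes at or above 500 CPM of library total held 41.4%. Mean EU nascent levels ran from 283 to 1714 scaled CPM with a median of 381, and nuclear means from 190.4 to 3262 with a median of 425. Scaled values near the lower end fall under 300 because the threshold was set on library totals. Most members, 157, also had a nuclear mean of at least 300 CPM of library total, and 45 did not.

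Membership rested on all 5 EU nascent libraries for most genes. In 152 members the level of 300 CPM was passed in every EU nascent library, in 27 in 4 libraries, in 17 in 3 and in 5 in 2. LOC100382850, a transcribed pseudogene, passed in 1 library alone. The lowest rank of any member in any EU nascent library was 1096 among all genes, held by gsh1 in replicate 3. Just inside the level were LOC100194044 (300.3 CPM of library total) and LOC100382850 (300.6), and just outside were LOC100274323 (299.7) and LOC103638205 (299.4). At the lower ratio limit LOC103634347 (-0.88) and LOC103635813 (-0.76) were inside and LOC103625696 (-1.02) and LOC103629430 (-1.07) outside. At the upper one LOC100382488 (0.99) and the polyubiquitin gene MUB3 (0.95) were inside and LOC100282068, also listed as MUB6 (1.01), and LOC100276552 (1.08) outside.

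**Figure D1:**
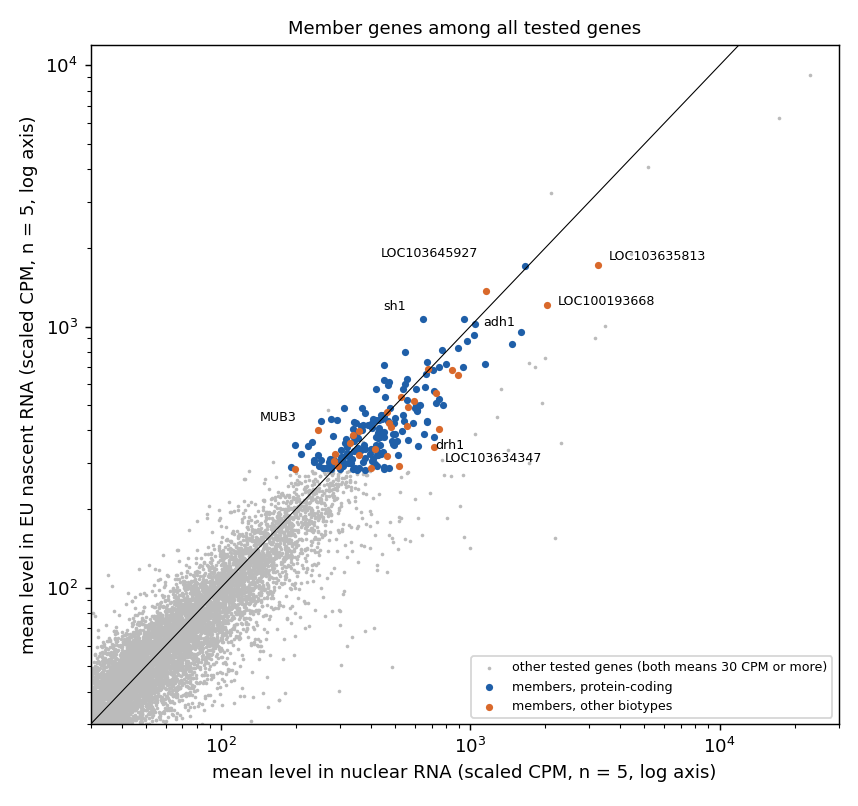
Mean level in EU nascent (vertical) against mean level in nuclear RNA (horizontal), both in scaled CPM on log axes, n = 5 libraries each; blue and orange points are protein-coding and other members, grey points other tested genes with both means of at least 30 CPM, and the line marks equality. The members lie at 283 to 1714 in EU nascent and follow the line, with LOC103635813 and LOC100193668 to its right and sh1 and MUB3 to its left.

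By biotype in the reference table, 173 members (85.6%) were protein-coding, 14 long noncoding RNA (lncRNA) genes, 13 transcribed pseudogenes, 1 a noncoding RNA pseudogene and 1 a miscellaneous RNA gene. Among the 21048 tested genes 91.2% were protein-coding, 3.47% lncRNA genes and 2.37% transcribed pseudogenes, against 6.93% and 6.44% for the last 2 classes in the set. Only 40 members carried a gene name other than a locus number, and 38 of these have a role that can be given. Counts that were not whole numbers, which mark reads divided between genes, occurred in 122 members (60.4%), in 43.1% of genes of 100 to 300 CPM within the same ratio limits and in 27.1% of tested genes. The mark depends on the reads of a gene, since more reads give more chances of a divided one, and the members were chosen for many reads. Levels of those 122 genes are uncertain by an amount not known here. Another gene in the reference table overlapped 26 members (12.9%, against 12.3% of tested genes), and as the strand setting of the counting is not given in the sources used here their reads may be mixed.

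The members were next set between captured and total nuclear RNA. By edgeR at an adjusted p of 0.05, 28 members (13.9%) were higher in EU nascent, 73 (36.1%) lower and 101 not past the threshold, where 19.8% of all tested genes were higher, 21.1% lower and 40.9% called in either direction. The rule used this contrast and its limits cap the differences, so nothing is read from these counts. Library totals alone gave 74 members higher and 44 lower, of which 28 and 44 were also higher and lower under TMM, and the replicate number as a block gave 46 higher and 89 lower. Among genes described below, with log2 differences ± SE from that fit, the block took phi1 (0.24 ± 0.06), alt (0.23 ± 0.06), PLD1 (0.18 ± 0.06), lpa1 (0.16 ± 0.06), TPS3 (0.19 ± 0.05), gsh1 (0.26 ± 0.05), LOC108961162 (0.18 ± 0.05) and LOC103626777 (0.19 ± 0.06) past the threshold as higher. As lower it added adh1 (-0.16 ± 0.05), HRGP (-0.15 ± 0.06), glu1 (-0.15 ± 0.05), sam2 (-0.18 ± 0.06), LOC103644157 (-0.32 ± 0.06), LOC109946014 (-0.26 ± 0.07) and LOC103629043 (-0.15 ± 0.05). Without EU nascent replicate 1 the counts were 37 and 70. The median difference was -0.09 (quartiles -0.33 and 0.12, range -1.05 to 0.81), beside 0.02 for all tested genes and -0.04 for the 1974 genes of 100 to 300 CPM within the same ratio limits. In scaled CPM the groups did not overlap in 77 members (38.1%), 19 with EU nascent above and 58 with it below, against 24.8% of all tested genes and 37.4% of the genes of 100 to 300 CPM.

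**Figure D2:**
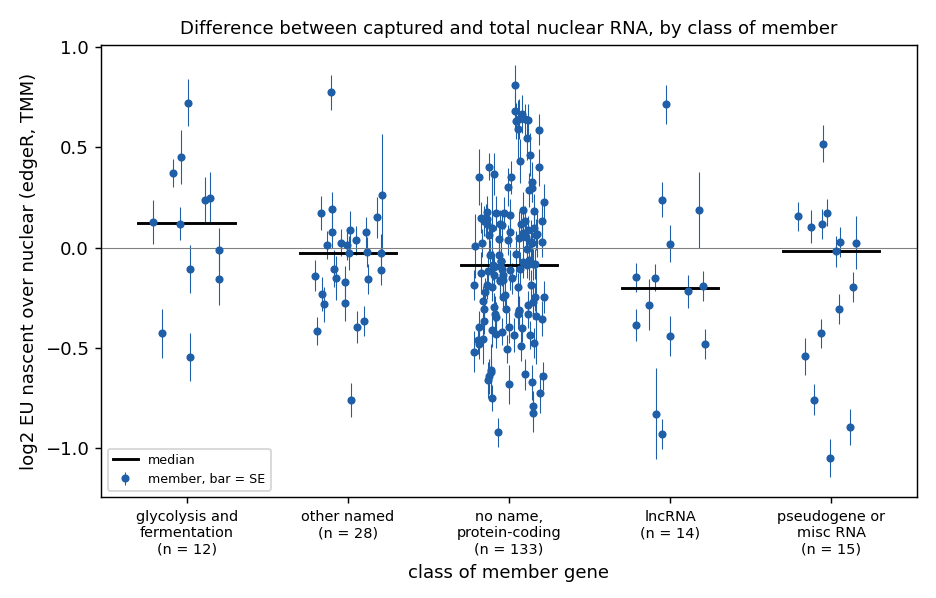
Log2 difference of EU nascent over nuclear (edgeR with TMM; points are members, bars the standard error, black lines the class median) by class of member. Medians are 0.12 for the 12 sugar and fermentation genes, -0.03 for the other 28 named genes, -0.09 for the 133 unnamed protein-coding genes, -0.20 for the 14 lncRNA genes and -0.02 for the 15 pseudogenes and miscellaneous RNA genes, and every class spans 0.

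At the top of the ranking stood LOC103635813, a lncRNA gene with divided reads. It had 1619, 1877, 1620.0, 1782 and 1671 scaled CPM in EU nascent replicates 1 to 5 and 2964, 3723, 3097, 3514 and 3010.0 in nuclear replicates 1 to 5. Every EU nascent library lay below every nuclear library, with a difference of -0.93 ± 0.08. The protein-coding gene LOC103645927, for which no name is given, had 1865, 1846, 1187, 1946 and 1699 scaled CPM in the EU nascent libraries and 1957, 1732, 1110.0, 1884 and 1595 in the nuclear libraries. Its groups overlapped (0.05 ± 0.14), and replicate 3 was the lowest library in both. Also in the top 10 were LOC103650063, a lncRNA gene at 1366 ± 108 in EU nascent and 1159 ± 144 in nuclear (SD; 0.24 ± 0.09), and LOC108961162, a protein-coding gene at 1064 ± 88.7 and 940.0 ± 103 (0.18 ± 0.09). The reference table puts 1 other gene between these neighbours. Both had their lowest library in replicate 3 in each group, and the groups overlapped.

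LOC100193668, a transcribed pseudogene that overlaps another gene, had 1452, 1151, 1098, 1167 and 1153 scaled CPM in EU nascent replicates 1 to 5 and 2197, 2023, 1949, 2007 and 2007 in the nuclear ones. Its EU nascent libraries were all below its nuclear libraries (-0.76 ± 0.08), with replicate 1 the highest in each group. LOC100502200, a protein-coding gene with whole counts, showed the same order at 952 ± 46.3 against 1599 ± 72.3 (-0.75 ± 0.07), again without overlap. LOC103625711, also protein-coding, had 1024 ± 159 and 1048 ± 170.3 (-0.03 ± 0.12), and its lowest library was replicate 1 in both groups. The other 3 genes of the top 10 have names: sh1, adh1 and HRGP.

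Sucrose entry, glycolysis and fermentation formed the largest group of named members, 12 of 40. They took 0.579, 0.660, 0.784, 0.676 and 0.826% of the counts of EU nascent replicates 1 to 5 and 0.458, 0.611, 0.612, 0.569 and 0.691% of those of the nuclear replicates. Replicate 1 was lowest and replicate 5 highest in both groups, and the groups overlapped. These genes were assembled from the symbols of the members and are not a list chosen apart from the data. Reads were in part divided between genes for sh1, ald1, gpc3, gpc4 and adh1, which leaves their levels beside related genes uncertain.

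The first step belongs to sh1, a sucrose synthase gene, which had 811, 1029, 1211, 1086 and 1209 scaled CPM in the EU nascent libraries and 474, 701, 697, 641 and 728 in the nuclear libraries. All 5 EU nascent libraries were above all nuclear ones, by 0.72 ± 0.12, and in both groups replicate 1 was the lowest. The related sucrose synthase gene ss2, one of the genes left out by name, stood at 3230.2 ± 431 scaled CPM in the captured RNA and 2114 ± 297 without capture (SD; 0.61 ± 0.10).

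Within glycolysis, phi1, the glucose-6-phosphate isomerase gene, had 367, 539, 603, 535 and 648 scaled CPM in EU nascent and 331, 489.5, 518, 452 and 478 in nuclear. Its groups overlapped (0.25 ± 0.13), with replicate 1 far below the other 4 in both. The aldolase gene ald1 stood at 310.4 ± 24.3 and 282 ± 54.7 (SD; 0.13 ± 0.11) and overlapped as well. Of the cytosolic glyceraldehyde-3-phosphate dehydrogenase genes, gpc4 had the most reads, at 658 ± 109 and 664 ± 86.1 (-0.01 ± 0.11). The other members of that family, gpc2 at 347 ± 18.9 and 319 ± 34.4 (0.12 ± 0.08) and gpc3 at 311 ± 50.5 and 334 ± 57.1 (-0.11 ± 0.12), also overlapped between groups. None of the 3 family members passed the edgeR threshold under TMM, while with library totals gpc2 moved to 0.29 and passed. The 13 named members higher with library totals only were gpc2, phi1, ald1, alt, pep7, PLD1, cesa8, lpa1, mha4, myosin2, RR9, sbp16 and TPS3. Another 4, eno1, ANT1, tua4 and EREB109, were lower under TMM only.

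The enolase gene eno1 went the other way from sh1. It had 537, 665, 808, 680.4 and 800.3 scaled CPM in the EU nascent libraries and 657, 972, 1022, 944 and 1097 in the nuclear libraries. The groups overlapped through the low nuclear replicate 1, and the difference was -0.43 ± 0.12, or -0.25 with library totals. For ppdk1, whose product pyruvate orthophosphate dikinase interconverts pyruvate and phosphoenolpyruvate and is best known from C4 leaves, the EU nascent libraries had 639.8, 576, 611, 615 and 617 scaled CPM and the nuclear libraries 466, 507, 446, 459 and 488. No library overlapped (0.37 ± 0.07), and the gene varied little between replicates, with a coefficient of variation of 3.74% in EU nascent and 5.10% in nuclear.

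Pyruvate leaves this path towards ethanol by pyruvate decarboxylase and alcohol dehydrogenase. The decarboxylase genes pdc1 and pdc3 differed in opposite directions. The former had 488, 594, 537, 519 and 743 scaled CPM in the EU nascent libraries and 300.02, 516, 371, 402 and 509 in the nuclear libraries, a difference of 0.45 ± 0.13, while pdc3 had 265, 252, 341, 248 and 352 in EU nascent and 334, 426, 418, 404 and 537 in nuclear, a difference of -0.55 ± 0.12. In both genes replicate 5 was the highest EU nascent library and the groups overlapped, and the contrast between them was not tested. The alcohol dehydrogenase gene adh1 had 731, 833, 1083, 824 and 1176 scaled CPM in the EU nascent libraries and 773, 1093, 1062, 961 and 1285 in the nuclear libraries. Its difference was -0.16 ± 0.13, the groups overlapped, and replicate 5 was highest and replicate 1 lowest in both. The gene alt, for alanine aminotransferase, which makes alanine from pyruvate, stood at 292 ± 54.4 with capture and 248 ± 27.5 without (SD; 0.24 ± 0.11). Its groups overlapped, and it passed 300 CPM in 2 EU nascent libraries.

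**Figure D3:**
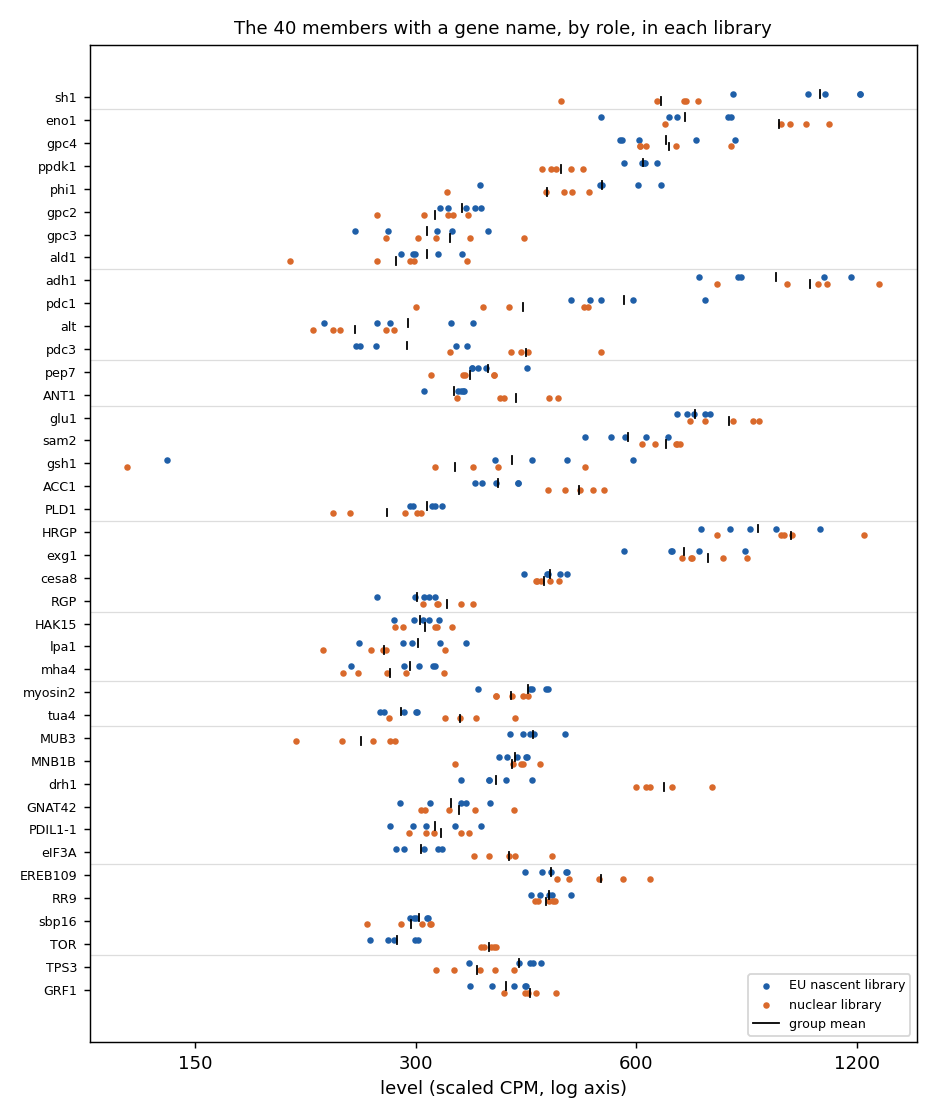
Level of each of the 40 named members in every library (points, scaled CPM on a log axis; blue EU nascent, orange nuclear) with the group means (black bars), grouped by role. The EU nascent points of sh1, ppdk1 and MUB3 lie to the right of all their nuclear points, those of drh1, eIF3A, ACC1 and TOR lie to the left, and gsh1 has 1 library of each group far to the left.

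Other genes of this path lay below the level or were left out. The list of sugar metabolism and glycolysis symbols, which also took up some aldehyde dehydrogenase and other genes by pattern, held 34 tested genes. Of its 9 members 2 were higher and 2 lower by edgeR, and of the 25 others 4 were higher, 3 lower and 18 not past the adjusted p threshold of 0.05. Over all tested genes 19.8% were higher and 21.1% lower. The 25 others had a median difference of 0.00 beside 0.02 for all tested genes. Among those others adh2, the second alcohol dehydrogenase gene, stood at 277 ± 45.8 and 268 ± 33 scaled CPM (0.05 ± 0.11), just under the level. The second enolase gene eno2 had 142 ± 12.9 and 186 ± 14.8 (-0.40 ± 0.08), and the phosphoglycerate kinase gene Pgk-2 176 ± 32.9 and 221 ± 40.3 (-0.34 ± 0.13). The paralogs sus2, pdc2 and Pgk-1 stayed below 10 scaled CPM in both groups on average. None of the 35 tested ribosomal protein genes, 11 chaperone genes, 17 cell cycle and replication genes or 44 defence and detoxification genes of the other lists was a member. With 202 members among 21048 tested genes, few or none would be met in lists of this size, so nothing is read from this. The lists were matched on symbols, which most genes lack.

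The 12 sugar and fermentation members varied more from library to library than the rest of the set did. Their median coefficient of variation was 16.4% in EU nascent and 16.5% in nuclear, against 7.06% and 7.92% for the other 190 members. In EU nascent 9 of the 12 exceeded 10%, and ppdk1, gpc2 and ald1 did not. Of the other 190 members 53 exceeded it, among them HRGP, with 14.5% and 16.6% and replicate 5 highest in both groups. Averaged over the 12 genes, replicates 1 to 5 stood at 86.5, 93.3, 109, 94.9 and 116% of each gene's own EU nascent mean. The nuclear replicates stood at 79.6, 104, 103, 96.9 and 117%. Replicate 1 held the lowest value in 6 of the 12 genes in EU nascent and in 11 in nuclear, and replicate 5 the highest in 7 and 8. For the other 190 members the same averages ran from 97.6 to 102% in EU nascent and from 96.7 to 102% in nuclear. In an average over so many mixed genes rises and falls cancel after TMM scaling, so nothing is read from that contrast. Replicate 1 was the shallowest library of each group. Replicate 3, the second shallowest of each, stood at 109 and 103%, and replicate 5 was not the deepest in either. Whether depth bears on the order of the replicates was not tested.

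**Figure D4:**
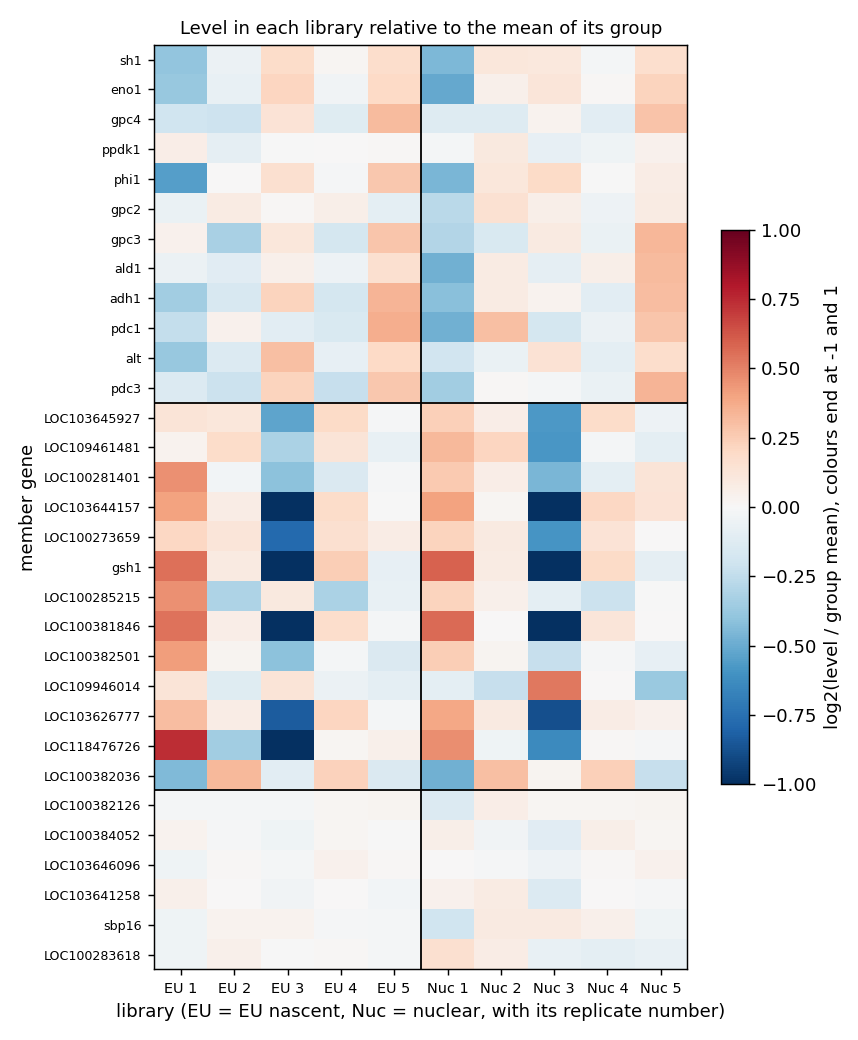
Level in each library relative to the mean of its group, as log2 (red above, blue below, colours ending at -1 and 1), for the 12 sugar and fermentation members (top), members with a coefficient of variation above 20% in either group and not in the first block (middle) and the 6 steadiest in EU nascent (bottom). Column 1 of each group is mostly blue and column 5 mostly red in the top block, column 3 is blue in most of the middle block, and the bottom block is pale.

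Organic acid and respiratory genes were few. The phosphoenolpyruvate carboxylase gene pep7 had 425, 374, 365, 358 and 357 scaled CPM in EU nascent and 348, 383, 315, 350.1 and 383 in nuclear, with overlap (0.08 ± 0.08). ANT1, for the mitochondrial carrier that exchanges ADP and ATP, had 349, 348, 343, 345 and 308 in the captured RNA and 341, 396, 391, 456 and 469 in the nuclear libraries. Its difference of -0.28 ± 0.09 came with overlapping groups, and with library totals it was -0.11.

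Among the remaining metabolic genes, gsh1, for the first enzyme of glutathione synthesis, varied the most of the named members. It had 594, 432, 137, 483 and 384 scaled CPM in the EU nascent libraries and 511, 359, 121, 388 and 319 in the nuclear libraries. Replicate 3 was the lowest and replicate 1 the highest in both groups, and EU nascent was the higher library in 5 of 5 same-numbered pairs. The difference was 0.26 ± 0.30, or 0.26 ± 0.05 when replicate number entered the fit as a block. ACC1, the acetyl-CoA carboxylase gene of fatty acid synthesis, had 413, 361, 413, 369 and 386 in EU nascent and 479.6, 454, 502, 524 and 542 in nuclear, with no overlap in scaled CPM (-0.37 ± 0.08). With library totals the groups of ACC1 would overlap. The S-adenosylmethionine synthetase gene sam2 (585 ± 57.9 and 659 ± 33.7, SD; -0.17 ± 0.08) overlapped between groups. So did glu1, a beta-glucosidase gene that acts on benzoxazinoid glucosides (721 ± 29.7 and 803 ± 74.8; -0.16 ± 0.08), and the phospholipase D gene PLD1 (311 ± 13.6 and 274 ± 34.1; 0.17 ± 0.09).

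All 4 cell wall members overlapped between the groups. HRGP, which codes for a hydroxyproline-rich wall glycoprotein, had 856, 804, 929, 735 and 1069 scaled CPM in the EU nascent libraries and 772, 954, 977, 945 and 1225 in the nuclear libraries. Replicate 5 was the highest library in both groups and the difference was -0.15 ± 0.11. The exoglucanase gene exg1 stood at 698 ± 97.4 and 750.4 ± 65.2 (SD; -0.11 ± 0.09), the cellulose synthase subunit gene cesa8 at 457 ± 23.7 and 449 ± 14.1 (0.02 ± 0.07), and RGP, a reversibly glycosylated polypeptide gene of wall polysaccharide synthesis, at 301 ± 20.9 and 331 ± 21.1 (-0.14 ± 0.08).

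Transport and the cytoskeleton gave 5 members. The plasma membrane proton pump gene mha4 (0.09 ± 0.10), the potassium transporter gene HAK15 (-0.02 ± 0.08) and lpa1, an ABC transporter gene whose mutants have seeds low in phytic acid (0.15 ± 0.10), had EU nascent means of 294 to 304 scaled CPM and overlapping groups. Alpha-tubulin gene tua4 had 300.1, 272, 289, 268 and 302 in EU nascent and 276, 345, 329, 362 and 410.1 in nuclear, overlapping through the low nuclear replicate 1 (-0.27 ± 0.09, or -0.10 with library totals). The motor protein gene myosin2 stood at 427 ± 36.5 and 405 ± 19.1 (0.07 ± 0.08).

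Of the genes for protein, RNA and chromatin handling, MUB3, a polyubiquitin gene, was the highest in EU nascent relative to nuclear. It had 404, 429.7, 479.5, 434 and 420.2 scaled CPM in the EU nascent libraries and 206, 277, 263, 281 and 238 in the nuclear libraries. No library overlapped and the difference was 0.77 ± 0.09. Its reads were in part divided between genes, and its own level is uncertain, since polyubiquitin genes are built of repeated units and resemble each other. Of the 6 other tested genes of the ubiquitin and proteasome list, 4 were higher, none lower and 2 not past the edgeR threshold, with a median of 0.41 beside 0.02 for all tested genes. Among all tested genes 19.8% were higher and 21.1% lower. In the reference table MUB3 lies next to another member, LOC100283618, which had 426 ± 10.9 and 347 ± 27.5 (0.30 ± 0.07) and no overlap either.

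Farthest on the other side among named members was drh1, a DEAD-box RNA helicase gene. It had 432, 398, 345, 378 and 378 scaled CPM in the EU nascent libraries and 761, 670.3, 626, 599 and 618 in the nuclear libraries. Every EU nascent library lay below every nuclear one (-0.76 ± 0.08). The translation initiation factor gene eIF3A had 289, 282, 326, 308 and 321 in EU nascent and 378, 360.4, 461, 409.8 and 402 in nuclear, likewise without overlap in scaled CPM (-0.40 ± 0.08). With library totals the groups of eIF3A would overlap. MNB1B, an HMG-box chromatin protein gene (410.0 ± 15.7 and 405 ± 39; 0.01 ± 0.08), GNAT42 of the acetyltransferase family (-0.03 ± 0.09) and PDIL1-1, the disulfide isomerase gene of the endoplasmic reticulum (-0.03 ± 0.09), overlapped and differed by less than a standard error.

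Regulatory genes are usually read at low levels, and 4 with a role were in the set. TOR, the kinase that couples growth to nutrient supply, had 260.2, 279.7, 302, 299 and 275 scaled CPM in EU nascent and 372, 386, 379.7, 369 and 383 in nuclear, without overlap (-0.42 ± 0.07). It overlaps another gene in the reference table, and 2 EU nascent libraries put it at the 300 CPM level. RR9, a response regulator gene of cytokinin signalling (456 ± 21.5 and 452 ± 12.6; 0.01 ± 0.07), and sbp16, of the SBP transcription factor family (303 ± 7.6 and 296 ± 24.3; 0.04 ± 0.07), overlapped. So did EREB109 of the AP2/ERF family at 458 ± 25.3 and 537 ± 65, with a difference of -0.23 ± 0.08 that was -0.06 with library totals. No role is given here for GRF1 (-0.11 ± 0.08) and TPS3 (0.19 ± 0.09), which both overlapped.

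The 133 protein-coding members without a name held the highest difference of the set. LOC100382488 had 326, 376, 359, 335 and 359 scaled CPM in the EU nascent libraries and 150.4, 237, 187, 211 and 207 in the nuclear libraries, no overlap and a difference of 0.81 ± 0.10. LOC100282847 stood at 443 ± 23 against 275 ± 33.6 (SD; 0.68 ± 0.09), again clear of the nuclear libraries. In all, 13 of these genes had every EU nascent library above every nuclear one, with differences of 0.09 to 0.81. The EU nascent libraries were all below in 42, with differences of -0.92 to -0.19, and the groups overlapped in 78. Over all tested genes 24.8% did not overlap, and 37.4% of the genes of 100 to 300 CPM. LOC103651852 was the lowest of them. Its libraries had 353, 372, 407, 369 and 382 in EU nascent and 691, 722, 731, 764 and 656 in nuclear (-0.92 ± 0.07), and another gene overlaps it.

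Among the 14 lncRNA genes 2 were higher and 6 lower by edgeR, beside 19.8% and 21.1% of all tested genes, and as the rule used this contrast nothing is read from it. LOC100383655 had 332, 457, 399.5, 441 and 386 scaled CPM in the EU nascent libraries and 243, 271, 218, 277 and 219 in the nuclear libraries, all EU nascent libraries above all nuclear ones (0.71 ± 0.10). LOC118476726 had 489, 230.0, 144, 298 and 304 in EU nascent and 717, 506, 335, 524 and 516 in nuclear, with overlap, replicate 3 lowest and replicate 1 highest in both (-0.83 ± 0.23). Leaving out 1 library at a time moved that difference between -1.07 and -0.65. As a share of each library, lncRNA members made up 0.863% ± 0.0234 (SD, n = 5) in the captured RNA and 0.971% ± 0.0505 in the nuclear RNA. LOC103635813 alone held 0.182% and 0.307%, and without it the other 13 held 0.681% ± 0.0197 and 0.664% ± 0.0472. By library totals, which these shares use, the order of the groups thus rested on that gene. TMM scaling moved the share of all members from 9.60 to 9.05% in EU nascent and from 9.41 to 9.99% in nuclear. The TMM factors that divide the shares were 1.04 to 1.08 in EU nascent and 0.93 to 0.95 in nuclear. With TMM the nuclear mean of the lncRNA members is thus the higher one also without LOC103635813.

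Of the 13 transcribed pseudogenes 2 were higher, 6 lower and 5 neither, on the same contrast and beside the same 19.8% and 21.1%. LOC103634347, the gene nearest to the lower ratio limit, had 419, 303, 348, 328 and 325 scaled CPM in the EU nascent libraries and 835, 678, 693, 689 and 667 in the nuclear libraries. The groups were far apart (-1.05 ± 0.09) and replicate 1 was the highest library of both. LOC100382850, the gene that reached the level in 1 library, had 359.8, 270.2, 273, 268 and 247 in EU nascent and 197, 196, 189, 205 and 202 in nuclear, with every EU nascent library above (0.52 ± 0.09). The noncoding RNA pseudogene LOC109029532 stood at 404 ± 16.9 against 751 ± 104 (-0.89 ± 0.09) without overlap.

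Replicate libraries were close for most members. The median coefficient of variation was 7.33% in EU nascent and 8.09% in nuclear, against 7.94% and 7.88% for genes of 100 to 300 CPM and 14.5% and 14.9% for all tested genes, which include many with few counts. A coefficient above 10% in EU nascent occurred in 62 members (30.7%, against 31.5% of the genes of 100 to 300 CPM). Steadiest was LOC100382126, with 280.0, 280.5, 280.3, 288 and 289.8 scaled CPM in EU nascent (1.70%). LOC100384052 (1.95%) and LOC103646096 (2.16%) followed, all 3 protein-coding. The value of LOC100382126 is under the counting error at its read numbers, so it is not read as a trait of the gene.

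At the other end 11 members exceeded 20% in EU nascent, 10 in nuclear, 6 in both and 15 in either. LOC118476726 (43.4%), gsh1 (41.7%) and LOC100381846 (39.1%) led in EU nascent. The protein-coding gene LOC100381846 had 530.5, 382, 139, 410.2 and 359 scaled CPM in the EU nascent libraries and 505, 342, 144, 371 and 343 in the nuclear libraries. As in gsh1, replicate 3 was far below the others and replicate 1 the highest in both groups, and the groups overlapped (0.10 ± 0.27). LOC103644157, also protein-coding, repeated the order with 747, 594, 279, 643 and 563 in EU nascent and 947, 726, 296, 825 and 787 in nuclear. So did the lncRNA gene LOC103626777, where replicate 3 had 183 in EU nascent and 156 in nuclear beside means of 326 and 287.

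Of the 6 genes above 20% in both groups, 5 were lowest in replicate 3 and highest in replicate 1 in each. The sixth, LOC100382036, was lowest in replicate 1 and highest in replicate 2 in each. Among the 15 above 20% in either group, 10 were lowest in replicate 3 in both. LOC109946014 stood apart, since its nuclear replicate 3 was high (598 scaled CPM, beside 371 in EU nascent). Over the whole set the same replicate number held the highest value in both groups in 88 members (43.6%), against 37.0% of genes of 100 to 300 CPM and 28.9% of all tested genes. The labels do not say what same-numbered libraries share.

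**Figure D5:**
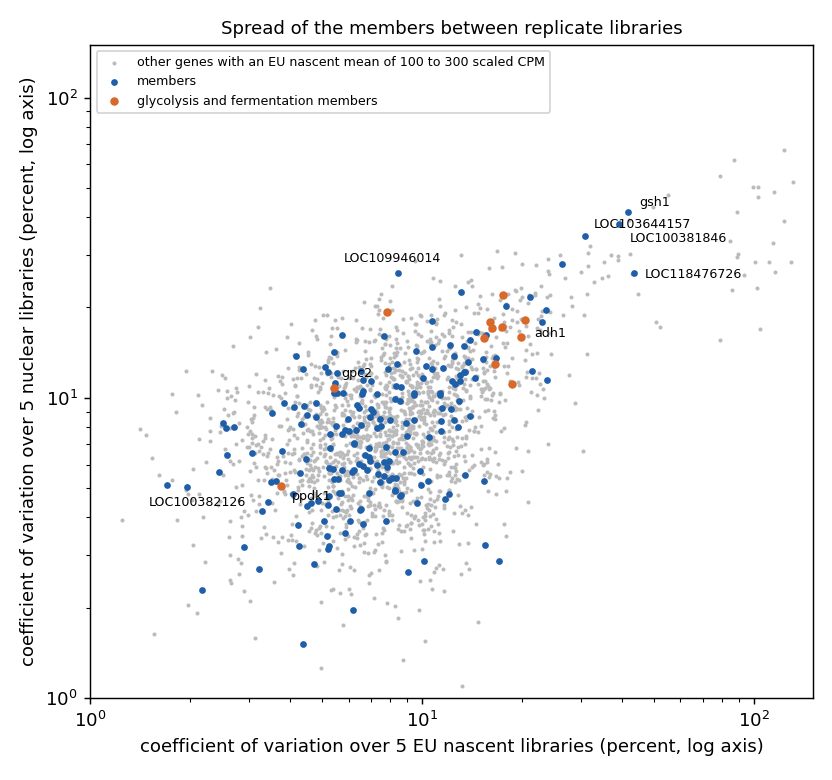
Coefficient of variation over the 5 nuclear libraries (vertical) against that over the 5 EU nascent libraries (horizontal), in percent on log axes, for members (blue; sugar and fermentation members orange) and other genes of 100 to 300 scaled CPM (grey). The members' medians are 7.33% and 8.09%, those of the orange points 16.4% and 16.5%, and gsh1, LOC100381846, LOC103644157 and LOC118476726 at the upper right.

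Few members were neighbours. Directly next to each other in the reference table lie 4 pairs: RGP and LOC103643672, LOC100279814 and LOC100193694, MUB3 and LOC100283618, and LOC103629043 and LOC118472158. In each pair the differences had the same sign, from -0.14 and -0.40 in the first to 0.77 and 0.30 in the third, while with library totals RGP moved to 0.03 and LOC103629043 to 0.02, so that 2 of the 4 pairs no longer shared a sign. The adh1 gene has LOC103643975 as its nearest member, with 2 genes between, and that gene stood at 352 ± 23 and 435 ± 18.6 (-0.31 ± 0.07).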

How the data were processed

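The authors deposited values that are taken here to be expected counts of reads for each gene, without normalization. No label names the unit, which was read from the values, most of them whole and the rest fractions. Directional libraries with molecular identifiers were made from rRNA-depleted nuclear RNA, per the labels' protocols. Tools named, per the submitters' processing notes, are HTSeq, STAR 2.7.10b, UMI-tools, Trimmomatic 0.36 and 0.39, deepTools and SAMtools, whose roles are not stated. The genome build, annotation and strand setting are not given in the sources used here, so no coordinates or sequences are printed. A RefSeq gene table (Zm-B73-REFERENCE-NAM-5.0), used for names, biotypes and neighbours, matched 48127 of 48174 identifiers and all 202 members.

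Counts were rounded and tested over all 10 libraries, 5 per group, in edgeR 4.0.16 (R 4.3.3) by its quasi-likelihood test (filterByExpr, TMM scaling, Benjamini-Hochberg threshold 0.05); the standard error is the absolute log2 difference divided by the square root of F. The fit was checked on simulated counts. DESeq2 1.42.0 was an alternative, with others of scaling, filter, level, ratio limits and libraries. Spread is the coefficient of variation of scaled CPM over 5 libraries; fractional means more than 1e-06 from a whole number. Same-numbered libraries deviated together from their group means across genes (r of 0.20, 0.22, 0.18, 0.19 and 0.16 for replicates 1 to 5, and at most 0.11 with another number), so the numbers were taken to pair the libraries. The block fit uses this pairing, and the main fit and the overlap of groups leave it out. For a difference steady across pairs the main standard error can thus be larger, as for gsh1 (0.30 against 0.05 in the block fit). P-values set the group difference against the spread between these libraries, which may be technical in part.

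The members and lists were chosen with earlier results of these data known. Genes named were the 10 highest in EU nascent, the 5 highest and 5 lowest in ratio, the 3 most and 3 least variable, up to 3 members per list and the genes at each threshold; the other named genes, the role groups and the genes above 20% were added after their values were seen. Lists were matched on symbols, as product names were not used here, and promoter motifs and protein features were not analysed here.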

Additional observations from a re-analysis of the deposited data

Results flagged for a closer look

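In 118 groups of 5 libraries, covering the named members in EU nascent and nuclear, 6 had 1 library whose gap to its nearest neighbour exceeded 0.71 of the group's whole range. Chance flags about 1 group in 20. Of these genes, 3 had their outlying library in EU nascent replicate 1. The transcribed pseudogene LOC100193668 was highest there at 1452 scaled CPM, with 1167 next, and the phosphoenolpyruvate carboxylase gene pep7 was highest there at 425, with 374 next. The motor protein gene myosin2 was lowest there at 365, with 429 next. In EU nascent replicate 5 the mitochondrial carrier gene ANT1 was lowest at 308, with 343 next. In nuclear replicate 1 the transcribed pseudogene LOC103634347 was highest at 835, with 693 next, and LOC100382126, the steadiest member in EU nascent, was lowest at 274, with 304 next.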

How the results depend on the processing

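The members' median difference and ratio changed sign with the scaling, while no member past the edgeR threshold changed direction with library totals or the block. With replicate number as a block 46 members were higher instead of 28, and the block left no earlier member call out (28 higher and 73 lower were shared). Apart from the genes given with their blocked values above, it changed no call of a member described there. Library totals alone gave 74 members higher and 44 lower, a median member difference of 0.0846 against -0.0874, and 7386 genes higher and 2765 lower over the whole table. With TMM-scaled CPM the median log2 ratio of the members was -0.0861 instead of 0.0856, and their shares 9.05% in EU nascent and 9.99% in nuclear. The set held 546 genes at a level of 200 CPM, 52 at 500 CPM and 80 when only genes with whole counts were kept. Ratio limits of 0.5 left 165, TMM-scaled CPM 171 (169 of them members), group medians 203 (196 of them members), and keeping the genes left out by name, an alternative added after the data were seen, gave 205.

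Leaving out 1 library at a time gave 198 to 204 members, 26 to 37 higher, 63 to 73 lower, and median differences of -0.11 to -0.07. The ratio of the members' median coefficient of variation to that of genes of 100 to 300 CPM ran from 0.898 to 0.971 in EU nascent (0.923 with all libraries) and from 0.959 to 1.04 in nuclear (1.03 with all libraries). Of single named genes 40 moved by more than their spread, all with library totals. Promoter motif alternatives were not run. With at least 169 counts per member and library, counting error alone gives a coefficient of variation of at most 7.69%, while divided reads and overlapping genes leave levels uncertain in 122 and 26 members.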
